A study of Mus musculus with 6 samples.

Results

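The genes described here are 32 genes of sterol synthesis, uptake and efflux, taken by name from the 31053 genes counted in 6 libraries of cultured mouse fetal lung cells. They were chosen as a list of known sterol genes, of which 18 encode enzymes of cholesterol synthesis, 5 control the pathway, 4 move or store cholesterol inside cells, and 5 belong to sterol efflux and its control. Lungs of C57BL6 fetuses at embryonic day 17 were digested with liberase, and the cells were frozen in 10% DMSO and replated on dilute Matrigel, a basement membrane extract, in medium for haematopoietic stem and progenitor cells with mTPO, IL6, SCF, FGF, VEGF and Flt3. All libraries share this origin, the wash with PBS on day 3 and the change to fresh medium. Suspension cells were the cells collected from the medium on days 4, 5 and 6 of culture, and adherent cells were the attached layer of the same days, detached with accutase and sorted for live cells positive for VE-cadherin (VECAD), an endothelial adhesion protein. Each fraction gave 3 droplet libraries, 1 per day, so the fractions differ in sorting and detachment as well as in attachment. Nothing in the labels tells whether each day was a culture or animal of its own, so the spread behind the p-values may be technical. In the main fraction test it is the spread between libraries of different days, which includes change with day. In the slope tests it is the departure from a straight line over the days.

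Cells make cholesterol from acetyl-CoA through mevalonate, farnesyl diphosphate, squalene and lanosterol. When sterol in the endoplasmic reticulum is low, SCAP carries the transcription factor SREBP2 (encoded by Srebf2) to the Golgi for cleavage, and the freed factor switches on the synthesis genes, while the INSIG proteins hold SCAP back when sterol is plentiful. When oxysterols build up, the liver X receptors LXRα (Nr1h3) and LXRβ (Nr1h2) switch on the exporters Abca1 and Abcg1, the ubiquitin ligase Mylip, which marks lipoprotein receptors for breakdown, and Srebf1. In the lung, macrophages handle much lipid, and Abcg1 is known for its part in their cholesterol export. For counting, 21 members were placed in the SREBP2 arm (the 18 enzymes with Srebf2, Insig1 and Stard4), 6 in the LXR arm (Nr1h2, Nr1h3, Abca1, Abcg1, Mylip and Srebf1) and 5 in neither (Scap, Insig2, Npc1, Npc2 and Soat1).

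Sequence is shown for the promoters of 3 genes of the SREBP2 arm and 1 of the LXR arm whose values the results below turn on, with 250 bases before and 50 after the annotated start, on the gene's strand (RefSeq, GRCm38.p6). Capitals mark CCAAT boxes, read as CCAAT or its complement ATTGG, the sterol-element letters TCACNCCAC in Hmgcs1 and ATCACCCCA in Srebf2, and in Abca1 a loose form of the LXR repeat (GGT and GGTCA with 7 bases between), here on the opposite strand. They lie at chr13:119690101-119690400 on the plus strand (Hmgcs1, HMG-CoA synthase), chr8:64733529-64733828 on the minus strand (Msmo1, which oxidises sterol methyl groups), chr15:82147019-82147318 on the plus strand (Srebf2) and chr4:53159846-53160145 on the minus strand (Abca1).
Hmgcs1: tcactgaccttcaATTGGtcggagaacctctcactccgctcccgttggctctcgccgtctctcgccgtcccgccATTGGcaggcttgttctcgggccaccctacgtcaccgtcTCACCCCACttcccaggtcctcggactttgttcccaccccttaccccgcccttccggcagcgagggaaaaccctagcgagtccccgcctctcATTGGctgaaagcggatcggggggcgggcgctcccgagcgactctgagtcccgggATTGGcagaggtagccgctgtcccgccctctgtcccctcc
Msmo1: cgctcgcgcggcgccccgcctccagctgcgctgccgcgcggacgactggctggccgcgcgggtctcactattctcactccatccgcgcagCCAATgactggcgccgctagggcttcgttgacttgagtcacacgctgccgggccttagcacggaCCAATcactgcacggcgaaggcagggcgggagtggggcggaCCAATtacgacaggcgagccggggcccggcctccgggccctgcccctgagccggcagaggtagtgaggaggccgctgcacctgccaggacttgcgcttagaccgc
Srebf2: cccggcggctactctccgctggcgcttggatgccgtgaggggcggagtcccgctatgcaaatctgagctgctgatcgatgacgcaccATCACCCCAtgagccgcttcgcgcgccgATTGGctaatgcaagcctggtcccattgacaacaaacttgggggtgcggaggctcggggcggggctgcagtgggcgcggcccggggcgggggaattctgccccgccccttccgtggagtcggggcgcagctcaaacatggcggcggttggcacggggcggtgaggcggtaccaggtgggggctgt
Abca1: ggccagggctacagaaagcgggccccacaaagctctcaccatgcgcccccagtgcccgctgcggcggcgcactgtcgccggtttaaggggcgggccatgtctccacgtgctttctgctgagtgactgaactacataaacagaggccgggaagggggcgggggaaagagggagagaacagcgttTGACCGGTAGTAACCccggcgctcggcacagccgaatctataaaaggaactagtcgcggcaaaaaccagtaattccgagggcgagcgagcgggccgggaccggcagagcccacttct

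The Hmgcs1 window held 4 CCAAT boxes, with the sterol-element match 137 bases before the start, the Msmo1 window held 3 boxes, and the Srebf2 window held 1 box and a match 163 bases before the start. A promoter entry was matched for 26 of the 32 members (Fdps, Fdft1, Sqle, Stard4, Npc1 and Abcg1 were not matched). CCAAT was found on either strand in 16 of the 17 matched SREBP2 arm genes, with Acat2 as the gene without it. It was in 2 of the 5 matched LXR arm genes (Srebf1 and Mylip). Among the 4 matched genes of neither arm it was in 3 (Insig2, Npc2 and Soat1), so it did not set the SREBP2 arm apart from these. Of all 32851 promoter windows of this length 37.4% held it, and of all genes 41.1%. TCACNCCAC was in 1.24% of windows and, among the members, in Hmgcs1. ATCACCCCA was in 0.28% and, among the members, in Srebf2, while the loose LXR repeat was in 1% and, among the members, in Abca1 and Srebf1, and both patterns were chosen after reading these sequences. The strict LXR repeat (AGGTCA given again after 4 bases) was in 0.0152% of windows and in no matched member. Both strands were searched for each pattern, and a match is a run of letters, not a measured binding site.

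**Figure D1:**
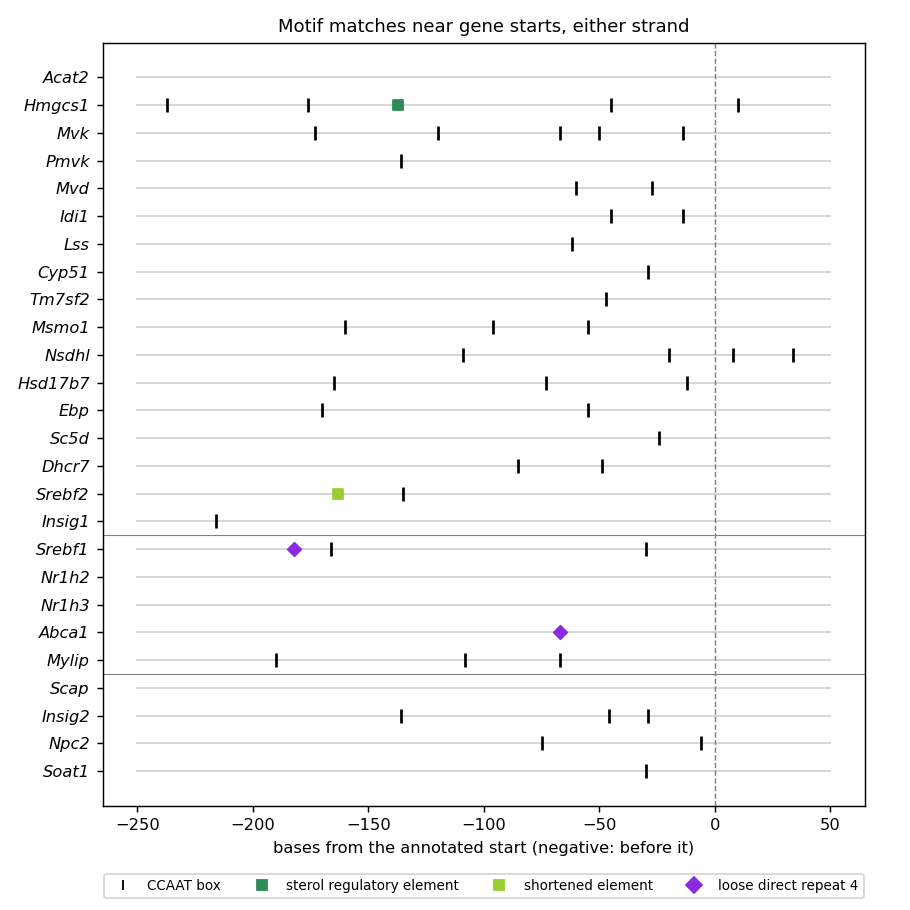
Positions of motif matches in the promoter windows of the 26 matched members, in bases from the annotated start on the horizontal axis and with SREBP2 arm, LXR arm and other genes from top to bottom. CCAAT boxes are seen in 16 of 17 SREBP2 arm genes, in 2 of 5 LXR arm genes and in 3 of 4 other genes.

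Srebf2 and Abca1 are also tied by a microRNA. The hairpin of miR-33 lies at chr15:82198122-82198190 (GRCm38), inside an intron of every coding Srebf2 transcript in GENCODE M21, and the mature miR-33 is known to repress Abca1 in mouse. The mature sequence (RefSeq, chr15:82198127-82198147, plus strand) is printed with its seed, bases 2 to 8, in capitals, together with the stretch of the Abca1 3' UTR (GENCODE M21, chr4:53033783-53033812, minus strand) in which CAATGCA, the reverse complement of the seed, occurs 3 times (the first 2 overlap).
mmu-miR-33-5p: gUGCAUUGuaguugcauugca
Abca1 3' UTR stretch: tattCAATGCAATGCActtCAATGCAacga

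There were 2514 genes with a 3' UTR at least as long as that of Abca1 (3156 bases). Within the first 3156 bases of it, 15.7% of these genes held the site and 0.159% (4 genes) held it 3 times or more. The microRNA itself was not measured in these libraries.

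Sense-strand counts summed to between 36451255 and 57784974 per library, and no member had fewer than 226 counts in any library. All 32 members passed the low-count filter that left 14912 genes for testing. Levels are given as CPM, counts scaled to the library size, which compare libraries for 1 gene but not genes with each other. The labelled fractions were checked against marker genes. The 7 endothelial markers summed to between 10.4 and 16.1 CPM in suspension and to between 566 and 1450.2 CPM in adherent libraries, with Cldn5, Emcn and Tie1 at 0 in at least 1 suspension library. The 6 macrophage markers summed to 18609, 16657 and 17143 CPM in suspension on days 4, 5 and 6, against 2079.8, 2829.9 and 5613 CPM in adherent libraries. Most of each sum came from 1 gene, Lyz2, with 14362, 13214 and 13596 CPM in suspension and 1526, 2190 and 4181 CPM in adherent libraries. These are bulk values, in which fewer cells of a type and less RNA per cell cannot be told apart.

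Over the adherent days most SREBP2 arm genes fell, while 3 LXR arm genes rose. Of the 32 members, 17 fell with day and 4 rose, where 3.52% of all 14912 genes fell, 7.75% rose and 11.3% did either (edgeR quasi-likelihood test of the slope per day, adjusted p under 0.05). The 17 that fell were 16 of the 21 SREBP2 arm genes and Scap, and the 4 that rose were Abca1, Nr1h3 and Mylip of the LXR arm, 3 of its 6, and Npc1. The median slope was -0.48 log2 units per day over the SREBP2 arm and 0.64 over the LXR arm, against 0.05 over all genes tested. Counting by order alone, 20 of the 21 SREBP2 arm genes were lower on each later adherent day, as were 21.9% of all genes, and 4 of the 6 LXR arm genes were higher on each later day, as were 33.5% of all genes. The heat map of the members by library shows these blocks side by side.

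**Figure D2:**
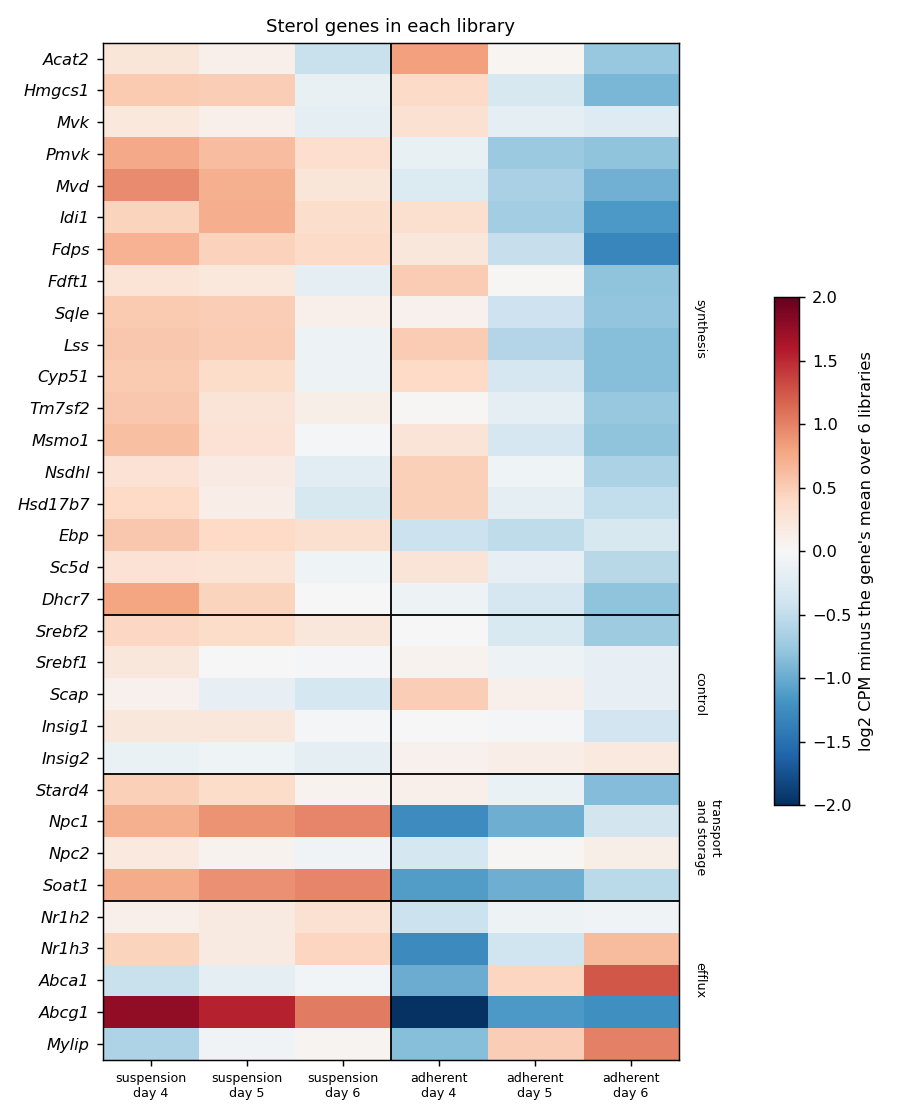
Level of each member in the 6 libraries, as log2 CPM minus the gene's own mean, with suspension days 4 to 6 in the left columns and adherent days 4 to 6 in the right columns, and horizontal lines between the roles. The synthesis rows pass to blue across the adherent days, while Nr1h3, Abca1 and Mylip pass to red.

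Among the synthesis enzymes, 14 of 18 fell in adherent cells and none rose. Hmgcs1, which makes HMG-CoA ahead of mevalonate, had 222, 219 and 140.1 CPM in suspension on days 4, 5 and 6, against 201, 124 and 82.0 CPM in adherent cells. Its adherent slope was -0.65 ± 0.10 log2 units per day (adjusted p = 0.0212), and the fractions were close on day 4 and apart on days 5 and 6. Acat2, which joins acetyl-CoA units at the start of the pathway, had the steepest adherent fall of all members, -0.79 ± 0.08 log2 units per day (adjusted p = 0.0101). It stood at 55.4, 49.99 and 34.3 CPM in suspension and at 82.7, 47.7 and 27.5 CPM in adherent cells, so that adherent cells had the higher level on day 4 and the lower level on days 5 and 6. Of the 60-base windows in its last 500 transcript bases, 19.1% are shared with Acat3, and reads could be split between the pair.

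The mevalonate kinases and the decarboxylase differed among themselves. Mvd, which turns mevalonate diphosphate into isopentenyl diphosphate, had 141, 121 and 86.6 CPM in suspension and 60.9, 46.8 and 37.6 CPM in adherent cells and fell in adherent cells by 0.35 log2 units per day (adjusted p = 0.0314). Pmvk, phosphomevalonate kinase, had 238, 216 and 178 CPM in suspension and 127, 84.5 and 81.1 CPM in adherent cells, and its adherent slope of -0.32 ± 0.08 did not pass the test (adjusted p = 0.0691). Mvk, mevalonate kinase, at 62.1, 57.3 and 47.5 CPM in suspension and 66.5, 47.3 and 44.8 CPM in adherent cells, likewise did not pass, with an adherent slope of -0.29 ± 0.08 (adjusted p = 0.0725). Both kinases were lowest on day 6 in either fraction.

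The isoprenoid enzymes Fdps and Idi1 had adherent falls close in size to that of Acat2. Fdps, farnesyl diphosphate synthase, had 40.0, 33.9 and 32.3 CPM in suspension, against 28.7, 17.98 and 9.95 CPM in adherent cells, where it fell by 0.76 log2 units per day (adjusted p = 0.0098). Its day 6 adherent level was the lowest of the 6 libraries and 0.346 times that of day 4. Idi1, isopentenyl diphosphate isomerase, had 20.5, 24.9 and 19.3 CPM in suspension and 18.8, 9.29 and 6.83 CPM in adherent cells, with an adherent slope of -0.74 ± 0.13 (adjusted p = 0.0289). Transcript ends of both share sequence with other annotated genes, in 69.6% of windows for Fdps and 42.5% for Idi1, so their levels are less certain than those of the other enzymes. Fdft1, squalene synthase, had 50.9, 49.0 and 36.9 CPM in suspension and 59.97, 42.7 and 24.2 CPM in adherent cells and fell in adherent cells (slope -0.65 ± 0.09, adjusted p = 0.016). It overlaps Ctsb on the opposite strand.

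The enzymes from squalene to cholesterol mostly moved together. Sqle, squalene epoxidase and a slow step of the pathway, had 137, 134 and 102 CPM in suspension, against 101, 70.9 and 54.7 CPM in adherent cells (adherent slope -0.44 ± 0.07, adjusted p = 0.0246). Msmo1 had 237, 191 and 153 CPM in suspension, against 186, 124 and 89.5 CPM in adherent cells (adherent slope -0.53 ± 0.06, adjusted p = 0.012), so that each fraction was lower on each later day and suspension was the higher on all 3 days. Lss, which closes the rings to lanosterol, had 28.1, 27.5 and 18.2 CPM in suspension and 27.5, 13.0 and 10.8 CPM in adherent cells (adherent slope -0.68 ± 0.14, adjusted p = 0.0379), level between the fractions on day 4 and higher in suspension afterwards. Cyp51, which demethylates lanosterol, stood at 199.7, 180.3 and 129 CPM in suspension, against 183, 110.0 and 77.1 CPM in adherent cells (adherent slope -0.62 ± 0.07, adjusted p = 0.0138).

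Nsdhl and Hsd17b7, which act with Msmo1 in removing methyl groups, had the same arrangement as each other, with adherent cells higher on day 4 and suspension higher on days 5 and 6. Nsdhl had 57.6, 52.7 and 40.3 CPM in suspension and 65.7, 44.4 and 30.2 CPM in adherent cells (adherent slope -0.56 ± 0.07, adjusted p = 0.0135). Hsd17b7 had 44.3, 36.8 and 27.1 CPM in suspension and 47.0, 29.4 and 23.9 CPM in adherent cells (adherent slope -0.49 ± 0.08, adjusted p = 0.0228). Sc5d, a sterol desaturase, was nearly level between the fractions on day 4, at 93.8, 93.0 and 72.3 CPM in suspension over the 3 days and 92.1, 69.0 and 52.3 CPM in adherent cells (adherent slope -0.41 ± 0.07, adjusted p = 0.027). Dhcr7, the reductase that forms cholesterol at the end of a branch, was higher in suspension on every day, with 39.9, 31.2 and 23.0 CPM in suspension and 21.5, 18.2 and 13.2 CPM in adherent cells (adherent slope -0.35 ± 0.07, adjusted p = 0.039). Tm7sf2, a sterol reductase, had 17.5, 14.5 and 13.1 CPM in suspension and 12.3, 10.7 and 7.11 CPM in adherent cells, with an adherent slope of -0.39 ± 0.10 that did not pass (adjusted p = 0.064), and 10.8% of its end windows are shared with Vps51.

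Ebp, the sterol isomerase of the late pathway, was the SREBP2 arm gene that was not lower on each later adherent day. It had 165, 149.7 and 141 CPM in suspension and 84.3, 79.8 and 91.0 CPM in adherent cells, with an adherent slope of 0.05 ± 0.06 (adjusted p = 0.612) that turned negative (-0.08) without the adherent library of day 6. Its suspension levels all lay above its adherent levels.

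Among the control genes, Srebf2 fell in adherent cells and its suspension slope did not pass the test. It had 68.8, 66.2 and 60.3 CPM in suspension, against 51.5, 41.4 and 31.4 CPM in adherent cells, with a slope of -0.10 ± 0.06 log2 units per day in suspension (adjusted p = 0.485) and of -0.36 ± 0.06 in adherent cells (adjusted p = 0.0254). The difference between these Srebf2 slopes, suspension minus adherent, was 0.26 ± 0.08 and did not pass (adjusted p = 0.185). Scap, the SREBP escort, had 17.3, 14.5 and 12.7 CPM in suspension and 23.0, 17.4 and 14.5 CPM in adherent cells and also fell in adherent cells (slope -0.33 ± 0.07, adjusted p = 0.0481). Insig1, which is itself a target of SREBP2, had 70.5, 70.9 and 58.8 CPM in suspension and 60.5, 58.8 and 46.4 CPM in adherent cells, and its adherent slope of -0.19 ± 0.08 did not pass (adjusted p = 0.167). Insig2, the family member not driven by SREBP2, had an adherent slope of 0.05 ± 0.06 (adjusted p = 0.615), close to 0. Srebf1, the SREBP of fatty acid synthesis, had 21.3, 18.3 and 17.6 CPM in suspension and 19.1, 16.8 and 16.1 CPM in adherent cells, with an adherent slope of -0.12 ± 0.07 (adjusted p = 0.332). It was the LXR arm gene with a negative adherent estimate.

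In the efflux group, Abca1, which loads cholesterol onto lipid-poor apolipoprotein, had 15.4, 18.5 and 20.04 CPM in suspension, against 10.5, 28.3 and 49.2 CPM in adherent cells. Adherent cells were below suspension on day 4 and above it on days 5 and 6, and the adherent slope of 1.11 ± 0.11 log2 units per day was the largest positive slope of any member (adjusted p = 0.0102). Day 6 was 1.31 times day 4 in suspension and 4.67 times in adherent cells. Mylip had 8.18, 12.0 and 13.1 CPM in suspension and 6.99, 17.7 and 25.3 CPM in adherent cells, the same crossing between days 4 and 5, with an adherent slope of 0.92 ± 0.15 (adjusted p = 0.0239). Nr1h3 (LXRα) had 23.5, 19.6 and 23.2 CPM in suspension and 7.18, 13.1 and 26.8 CPM in adherent cells, so that adherent cells reached and passed the suspension level only on day 6 (slope 0.95 ± 0.10, adjusted p = 0.0107). Nr1h2 (LXRβ) and Abcg1 had slopes of 0.18 ± 0.07 and 0.36 ± 0.14 that did not pass (adjusted p = 0.163 and 0.158).

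**Figure D3:**
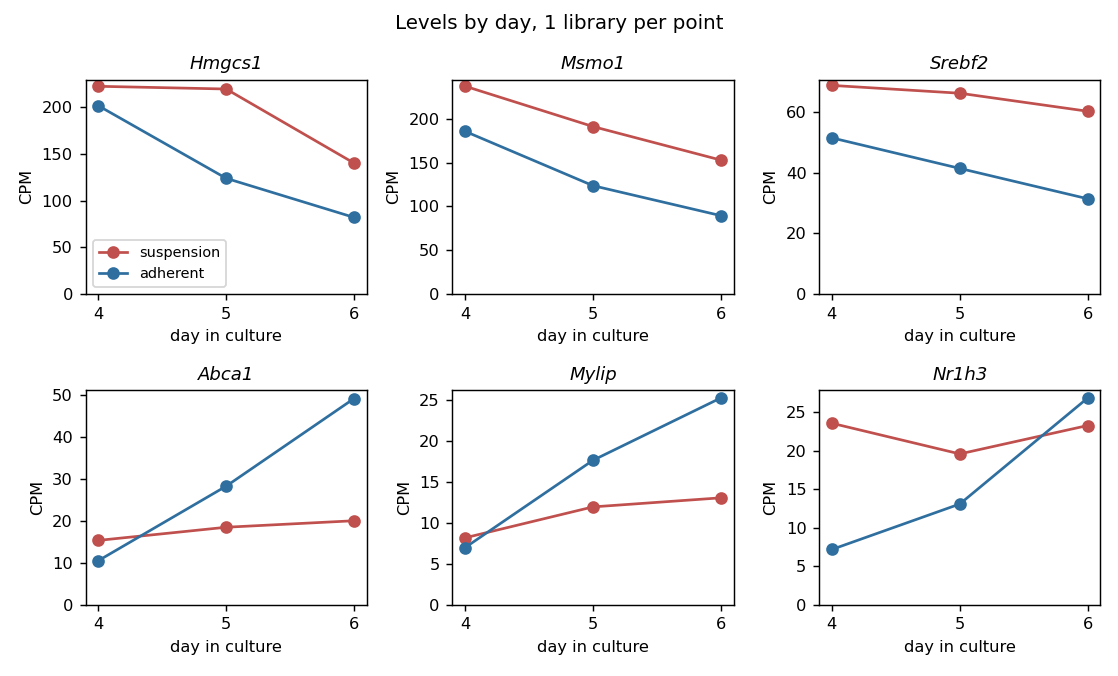
Level in CPM against day in culture for 3 SREBP2 arm genes in the upper row and 3 LXR arm genes in the lower row, with 1 library per point and no error bars since each fraction has 1 library per day. The adherent lines of Hmgcs1, Msmo1 and Srebf2 run below the suspension lines and downward, and those of Abca1, Mylip and Nr1h3 climb across the suspension lines.

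Of the transport and storage genes, Npc1, which lets cholesterol out of lysosomes, had 108, 123 and 129.9 CPM in suspension and 27.7, 33.5 and 51.0 CPM in adherent cells, where it rose (slope 0.44 ± 0.07, adjusted p = 0.0223). Stard4, a carrier of cholesterol between membranes and a known SREBP2 target, had 66.3, 61.9 and 50.1 CPM in suspension and 51.2, 43.5 and 26.2 CPM in adherent cells, where it fell (slope -0.48 ± 0.09, adjusted p = 0.034). Soat1, which esterifies cholesterol for storage, and Npc2, the soluble partner of Npc1, had adherent slopes of 0.29 ± 0.07 and 0.23 ± 0.07 that did not pass (adjusted p = 0.0578 and 0.0929).

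The adherent slopes rest on 3 libraries and 2 residual degrees of freedom. Without the adherent library of day 6, 0 members passed as falling and 2 as rising, where 0.456% of all genes fell and 1.42% rose. Without that of day 4 it was 1 and 1, where 0.797% and 1.53% of all genes did so. Leaving out any suspension library gave 7 falling and 2 rising, where 0.699% to 0.866% of all genes fell and 1.94% to 2.25% rose. Leaving out the adherent library of day 5 gave 20 and 6, where 6.54% and 12.5% of all genes did so. Of the 21 called members, Abca1 kept its call in all 6 of these fits (slope 0.80 to 1.43, adjusted p up to 0.0464), and the other 20 lost theirs in at least 1. Without the adherent library of day 4 the slope was 0.52 for Mylip, -0.27 for Lss, -0.44 for Idi1 and -0.30 for Hsd17b7 (adjusted p = 0.216, 0.591, 0.411 and 0.333). Without that of day 6 it was -0.23 for Stard4 and 0.28 for Npc1 (adjusted p = 0.381 and 0.29). For these 6 members the slope moved by more than 1.5 times. Marker genes of cell types moved over the same adherent days. Of the 6 macrophage markers 5 rose, where 7.75% of all genes did. Of the 6 markers of dividing cells 5 fell and of the 5 epithelial markers 4 fell, where 3.52% of all genes did. The dividing-cell sums were 844 to 855 CPM in suspension, against 591, 417 and 335 CPM in adherent cells on days 4, 5 and 6. The epithelial sums were 64.0, 15.3 and 6.51 CPM in suspension, against 564, 183 and 107 CPM in adherent cells. Of the 6 neutrophil markers 2 rose (adherent sums of 225, 724 and 959 CPM) and of the 5 fibroblast markers 1 rose (1466, 2282 and 2214 CPM). None of the 7 endothelial markers was called, with adherent sums of 701, 1450.2 and 566 CPM on days 4, 5 and 6. None of these macrophage, dividing-cell or epithelial markers was at 0 in any library. The part of any of these cell types in the sterol gene slopes was not tested.

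In suspension cells no member passed the slope test, where 0.402% of all genes fell and 0.0939% rose. By edgeR, 13 members had an unadjusted p under 0.05, as did 16.5% of all genes, and DESeq2's Wald test called 6 falling, where it called 4.03% of all genes falling. The estimates were below 0 for all 21 SREBP2 arm genes (median -0.21 log2 units per day, against -0.01 over all genes), and 19 of the 21 were lower on each later day, as were 24.9% of all genes. Dhcr7 had the lowest adjusted p, with a suspension slope of -0.40 ± 0.07 (adjusted p = 0.0924). In the LXR arm the suspension slopes ran from -0.37 ± 0.12 for Abcg1 to 0.34 ± 0.14 for Mylip, with a median of 0.04, and 3 of the 6 were higher on each later day, as were 24.1% of all genes. The median ratio of day 6 to day 4 over the SREBP2 arm was 0.746 in suspension and 0.512 in adherent cells, and over the LXR arm 1.07 in suspension and 2.64 in adherent cells.

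**Figure D4:**
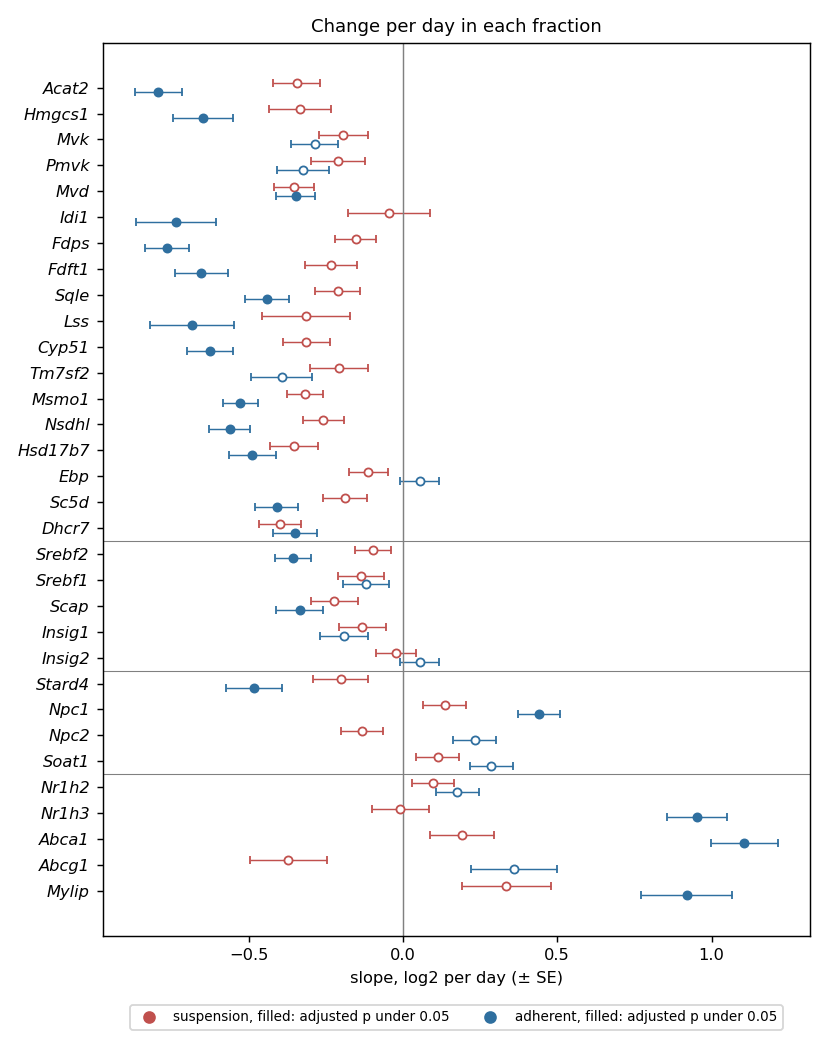
Slope in log2 units per day with its standard error for each member, in suspension (red) and adherent cells (blue), with filled points where the adjusted p was under 0.05. Filled blue points lie at negative slopes for most synthesis genes and at positive slopes for Npc1, Nr1h3, Abca1 and Mylip, and no red point is filled.

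Whether the slopes of the fractions differed was tested directly, and no member passed, where 0.516% of all genes did (0.0536% with a higher and 0.463% with a lower slope in suspension). At an unadjusted p under 0.05 there were 14 members and 19.6% of all genes. DESeq2's Wald test called 2 members with a higher and 4 with a lower slope in suspension, and of all genes 1.38% and 5.47%. The lowest adjusted p-values were those of Nr1h3 (difference, suspension minus adherent, -0.96 ± 0.14 log2 units per day, adjusted p = 0.0625), Fdps (0.61 ± 0.10, adjusted p = 0.0699) and Abca1 (-0.91 ± 0.15, adjusted p = 0.0729). The slope was less negative in suspension for 18 of the 21 SREBP2 arm genes and lower in suspension for all 6 LXR arm genes. The median difference was 0.23 log2 units per day over the SREBP2 arm and -0.66 over the LXR arm, against -0.07 over all genes. In the LXR arm, Srebf1 (-0.02 ± 0.10) and Nr1h2 (-0.08 ± 0.10) lay near the value of all genes. A slope common to both fractions also passed for no member (lowest adjusted p 0.106, for Mvd and Dhcr7), where 0.0134% of all genes passed. For it 25 members and 20.4% of all genes had an unadjusted p under 0.05. DESeq2's Wald test called 17 members falling and 2 rising, where it called 4.88% of all genes falling and 4.89% rising.

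Between the fractions, 10 members were higher and 1 was lower in suspension (edgeR quasi-likelihood test, adjusted p under 0.05), where 27.1% of all genes were higher, 29.7% lower and 56.8% either. In this fit, which has no term for the day, the share of members called higher is close to that of all genes. With the day as a block, which removes what both fractions of a day share, 18 members were higher and none lower, where 27.3% of all genes were higher, 29.1% lower and 56.4% either. The genes added by the block were Hmgcs1, Idi1, Fdps, Cyp51, Tm7sf2, Msmo1, Insig1 and Stard4, and the gene lost was Insig2. In 13 members every suspension library was above every adherent library and in 1 every suspension library was below, where 33.4% and 34.4% of all genes were so placed, 67.8% in all. Marker genes of other cell types differed between the same libraries. The 6 neutrophil markers summed to between 24884 and 77190.1 CPM in suspension and to between 225 and 959 CPM in adherent cells, and the 5 fibroblast markers to between 17.2 and 64.4 CPM in suspension and to between 1466 and 2282 CPM in adherent cells. The part of these cell types, and of the macrophage markers above, in the differences between the fractions was not tested.

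**Figure D5:**
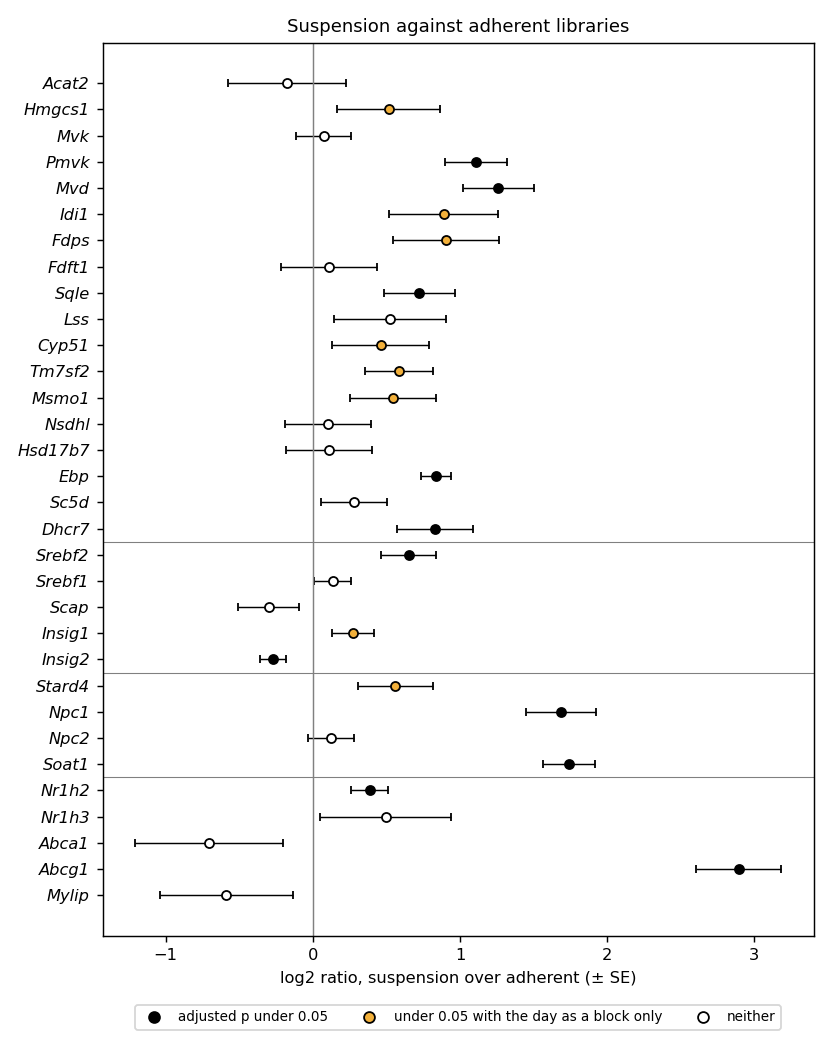
Log2 ratio of suspension over adherent levels with its standard error for each member, grouped by role, with black points where the adjusted p was under 0.05 and yellow points where it was so with the day as a block alone. Abcg1, Soat1 and Npc1 lie farthest to the right, and Abca1 and Mylip lie left of 0 with wide errors.

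The largest difference was that of Abcg1, which exports cholesterol to lipoprotein particles. It had 70.0, 59.5 and 41.8 CPM in suspension, against 5.21, 9.17 and 8.69 CPM in adherent cells, a log2 ratio of 2.89 ± 0.29 or 7.42-fold (adjusted p = 0.000697). In every library its antisense count was above its sense count (at least 128% of it), and the call held with reads on either strand. Its partner in efflux, Abca1, did not pass (log2 ratio -0.71 ± 0.50, adjusted p = 0.267), nor did Mylip (-0.59 ± 0.45, adjusted p = 0.303), so the 3 LXR targets Abcg1, Abca1 and Mylip were not placed alike. Without the adherent library of day 4, Abca1 and Mylip were called lower in suspension (log2 ratios -1.11 and -0.95, adjusted p = 0.0152 and 0.0247), and without that of day 6 their ratios were -0.11 and -0.15 (adjusted p = 0.84 and 0.782). Nr1h3 had a log2 ratio of 0.50 ± 0.44 (adjusted p = 0.373), called higher in suspension without the adherent library of day 6 (1.13, adjusted p = 0.0168) and at 0.15 without that of day 4 (adjusted p = 0.701). Nr1h2, at 39.8, 41.8 and 45.5 CPM in suspension and 27.5, 34.5 and 35.2 CPM in adherent cells, was higher in suspension (0.39 ± 0.13, adjusted p = 0.0388), a call lost without any of 5 of the 6 libraries (adjusted p up to 0.105).

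Among the storage and transport genes, Soat1 and Npc1 were higher in suspension by about the same amount. Soat1 had 316, 357 and 369.7 CPM in suspension, against 87.1, 95.6 and 129.7 CPM in adherent cells (log2 ratio 1.74 ± 0.17, adjusted p = 0.000691). Npc1 had a log2 ratio of 1.68 ± 0.24 (adjusted p = 0.00179), and for both genes the fractions did not overlap. Npc2, at 1143, 1050.2 and 952 CPM in suspension and 786, 1017 and 1086 CPM in adherent cells, overlapped and did not pass (0.12 ± 0.15, adjusted p = 0.526). Stard4 had 0.56 ± 0.26 (adjusted p = 0.103, and 0.021 with the day as a block).

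Of the 18 synthesis genes, 5 were higher in suspension and none lower, where 27.1% of all genes were higher, and with the day as a block 11 were higher, where 27.3% of all genes were. Mvd (1.26 ± 0.24, adjusted p = 0.00545), Pmvk (1.11 ± 0.21, adjusted p = 0.00516) and Ebp (0.84 ± 0.10, adjusted p = 0.00123) kept the call when any 1 library was left out, as did Npc1, Soat1 and Abcg1. Dhcr7 (0.83 ± 0.26, adjusted p = 0.0315) lost it without any of 4 of the 6 libraries (adjusted p up to 0.133). Sqle (0.72 ± 0.24, adjusted p = 0.0406) lost it without any of 5 of the 6 (adjusted p up to 0.165). In Mvk, Fdft1, Nsdhl and Hsd17b7 the log2 ratios lay between 0.07 and 0.11 and changed sign when some libraries were left out, and Acat2 was at -0.18 ± 0.40 (adjusted p = 0.729). Srebf2 itself was higher in suspension (0.65 ± 0.19, adjusted p = 0.0236), in a call lost without 4 of the 6 libraries (adjusted p up to 0.11). Insig2, at 23.6, 24.3 and 22.9 CPM in suspension and 27.5, 28.5 and 29.6 CPM in adherent cells, was the member called lower (-0.27 ± 0.09, adjusted p = 0.0353), in a call lost without any of 5 of the 6 libraries (adjusted p up to 0.0997) and without a filter on low counts. With the day as a block its adjusted p was 0.0645.

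Taken day by day, the arms crossed. Of the 21 SREBP2 arm genes, 16, 21 and 21 were higher in suspension than in adherent cells on days 4, 5 and 6, while of the 6 LXR arm genes 6, 4 and 3 were, against 50.2%, 50% and 51.7% of the 14630, 14667 and 14418 genes with counts in both libraries of the day. The median log2 ratio of suspension over adherent was 0.22, 0.68 and 0.77 for the SREBP2 arm and 0.54, 0.20 and -0.04 for the LXR arm on these days. Each of these values compares 1 library with 1 library, so they carry no test. Over the 3 days the median log2 ratio was 0.54 for the SREBP2 arm, 0.26 for the LXR arm and -0.0025 for all genes.

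A list of 33 further genes of sterol and fatty acid handling gave 15 higher and 5 lower in suspension, where 27.1% and 29.7% of all genes were. The 4 highest log2 ratios with a mean of at least 20 CPM were those of Lipa, the lysosomal acid lipase (2.10 ± 0.29), Nceh1, a cholesteryl ester hydrolase (2.02 ± 0.24), Lbr, a sterol reductase of the nuclear envelope (1.73 ± 0.22), and Plin2, a lipid droplet coat protein (1.504 ± 0.31), with adjusted p between 0.0011 and 0.00712. The 4 lowest were those of Scd1, a fatty acid desaturase (-1.82 ± 0.48), Elovl6, a fatty acid elongase (-1.26 ± 0.31), Mbtps1, the protease that makes the first cut in SREBP (-0.76 ± 0.12), and Ggps1, which makes geranylgeranyl diphosphate (-0.67 ± 0.09), with adjusted p between 0.00171 and 0.0173. In adherent cells 4 of the 33 rose with day (Lipa, Nceh1, Rxra and Plin2) and 6 fell (Lbr, Aacs, Tmem97, Fasn, Scd1 and Scd2), where 7.75% and 3.52% of all genes did. Rxra, the partner receptor of the LXRs, had 33.2, 40.0 and 34.1 CPM in suspension, against 12.6, 17.1 and 24.4 CPM in adherent cells, with an adherent slope of 0.48 ± 0.09 (adjusted p = 0.0336). Lipa and Nceh1, which free cholesteryl esters, and Soat1, which stores them, were each higher in suspension. Lipa and Nceh1 were named for their high ratios, so this is no test of cholesteryl ester handling as a group. All 6 macrophage, all 6 neutrophil, the 3 tested erythroid and 5 of the 6 dividing-cell markers were also higher in suspension. All 7 endothelial, all 5 fibroblast and 3 of the 5 epithelial markers were lower. The part of these cell types in the levels of these genes was not tested.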

How the data were processed

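Per the labels' protocols, libraries were made with a 10x droplet kit for transcript 3' ends. Per the submitters' processing notes the tools were bcl2fastq, Cell Ranger and STARsolo on mm10, with versions not given in the sources used here. Deposited files give each library 1 count per gene, on either, the sense and the antisense strand, with no cell axis and no correction for molecular identifiers. The sense counts were used. They summed to between 36451255 and 57784974 per library, and 3 counts correspond to 0.0594 to 0.0756 CPM. Another 4 summary lines stayed out of totals and tests. Reads assigned to no gene made up 20.9% to 21.2% of the gene, no-feature and ambiguous reads in suspension and 31.1% to 34.9% in adherent libraries.

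Gene names and positions are those of GENCODE M21 (GRCm38, the assembly of mm10), which held 30934 of 31053 identifiers and all 32 members. Genes were filtered with filterByExpr and scaled by TMM in edgeR 4.0.16 (R 4.3.3), and 14912 were tested with its quasi-likelihood test, adjusted by Benjamini-Hochberg over all of them at 0.05. Values after ± are approximate standard errors (the size of the log2 value over the root of F). The fraction test had 4 residual degrees of freedom, the common slope 3, and the other slope tests 2. A fraction's replicates are its 3 days. The labels give libraries of both fractions a shared day. Across genes, deviations from each fraction's mean correlated at 0.318, 0.095 and 0.253 on the same day and at -0.285 to 0.022 on different days (genes are not independent replicates). These deviations sum to 0 over a fraction's libraries, and a change with day common to both fractions also gives same-day correlation. The correlations therefore cannot tell whether the libraries of a day share a culture. The libraries were paired by the labelled day. The fit with the day as a replicate block, with 2 residual degrees of freedom, is given beside results it changes. Alternatives were reads on either strand, DESeq2 1.42.0 size factors and its Wald test, no filter, at least 10 CPM in 3 libraries, thinned counts, the block, and leaving out each library. The steps were run on simulated data in which each gene's spread was capped, so that run does not give the error rates in these data.

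Motifs were searched on both strands of RefSeq promoter windows. The members, arms and lists were chosen with earlier results of these data known. All members are named, and of the wider list the 4 highest and 4 lowest called ratios with a mean of at least 20 CPM. Genes named for their adherent slopes were all that were called.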

Additional observations from a re-analysis of the deposited data

Results flagged for a closer look

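Antisense counts, which the main comparisons did not use, reached at least 10% of the sense count in every library for 4 members. Fdft1 had 140%, 174% and 231% of its sense count on the antisense strand in suspension on days 4, 5 and 6, against 25.8%, 40.8% and 123% in adherent cells, and it overlaps Ctsb, a lysosomal protease gene, on the opposite strand. The lowest antisense share over the 6 libraries was thus 25.8% for Fdft1. It was 10.2% for Insig1, with no annotated gene on the opposite strand. For Soat1 it was 23.2%, with Gm37648 opposite, and for Abcg1 128%, with none opposite. The calls of these members in the fraction test and the adherent slope were the same with reads on either strand. The either-strand total was below the sense total in every library (42243488 against 43805361 in suspension on day 4). Either-strand counts are thus not the sum of sense and antisense counts, and they cannot show whether Ctsb reads affect the Fdft1 values.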

How the results depend on the processing

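Under the planned settings other than leaving out a library, the adherent slope gave 17 to 20 falling and 4 to 6 rising members, against 17 and 4. Of all genes these settings called 3.55% to 7.36% falling and 7.22% to 10.8% rising. With the day as a replicate block 18 members were higher in suspension and 0 lower, where 27.3% and 29.1% of all genes were. With the block on thinned counts it was 17 and 0, where 27.5% and 29.3% of all genes were. With at least 10 CPM in 3 libraries 6 were higher, where 27.2% of all genes were. Without a filter 0 were lower, where 20.7% of all genes were. For the suspension slope, DESeq2's Wald test called 6 falling and no filter 5, and of all genes 4.03% and 2.75%. For the slope difference these settings called 2 and 2 above 0, and 4 and 3 below. Of all genes they called 1.38% and 0.722% above 0, and 5.47% and 3.85% below. For the common slope DESeq2 called 17 falling and 2 rising, and of all genes 4.88% and 4.89%. The causes were not tested.

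Leaving out each library in turn gave 6 to 17 members higher and 0 to 3 lower in suspension. Of all genes 18.9% to 27.3% were higher and 23.8% to 29.3% lower. In adherent cells 0 to 20 members fell and 1 to 6 rose. Of all genes 0.456% to 6.54% fell and 1.42% to 12.5% rose there. In suspension 0 to 1 members fell, and 0% to 2.42% of all genes. Slope differences were above 0 for 0 to 1 members and below 0 for 0 to 3. Of all genes 0% to 0.969% were above and 0% to 4.66% below. The median log2 ratio of the SREBP2 arm lay between 0.33 and 0.84 (0.84 without the adherent library of day 4) and that of the LXR arm between 0.18 and 0.27.

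No called gene changed sign. Uncalled log2 ratios that did so with at least 10 CPM in 3 libraries were -0.0387 for Fdft1, -0.0363 for Hsd17b7, -0.0708 for Mvk, -0.0156 for Npc2, -0.0437 for Nsdhl and -0.007 for Srebf1. Over the left-out libraries the ratios ran from -0.48 to 0.31 for Acat2, -0.17 to 0.45 for Fdft1, -0.11 to 0.44 for Hsd17b7, -0.0591 to 0.27 for Mvk, -0.0026 to 0.22 for Npc2 and -0.13 to 0.43 for Nsdhl, and the adherent slopes from -0.0771 to 0.81 for Abcg1 and -0.0791 to 0.19 for Ebp. Each fraction has 1 library per day, which leaves 2 residual degrees of freedom for the slopes. Leaving out libraries for the slopes within a fraction, and the alternatives for single genes' adherent slopes, were added after seeing the data.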
